A study of Homo sapiens with 6 samples.

Results

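The 10 genes described are 6 FGF genes (FGF2, FGF4, FGF8, FGF13, FGF17 and FGF19) and the 4 FGF receptor genes (FGFR1 to FGFR4), taken by symbol from the 23346 gene rows of an RNA sequencing table. The cells were KhES-1, an established line of human embryonic stem cells, and a laminin fragment served as the coating in both media, AKIT and Essential 8 (E8). E8 medium is known to supply recombinant FGF2 and TGF-beta, and AKIT medium is known to supply azakenpaullone, ID-8 and tacrolimus in their place, which inhibit GSK3, DYRK kinases and calcineurin. The series has 3 libraries per medium, and 3 AKIT libraries were set against E8 replicates 1 and 2, since E8 replicate 3 was not analysed here. Only this 1 line was used, and nothing states that the replicates were grown as separate cultures, so p-values reflect only how far these libraries spread, possibly for technical reasons. Values are RPKM, reads divided by gene length and by library size, which allows a rough comparison between genes. With a single length per gene, such a comparison takes no account of the splice forms used. The libraries held 16242864 to 23263095 reads. Errors beside means are SD (n = 3 in AKIT, n = 2 in E8). AKIT replicate 2 stood apart from the other AKIT libraries, at -15.2 on the first principal component of all tested genes against -26.4 and -26.2, with E8 at 33.8 and 34.0.

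Fibroblast growth factors are ligands that bind, together with heparan sulfate, to receptor tyrosine kinases and so activate the adaptor FRS2, RAS and the ERK kinases. In human embryonic stem cells FGF2 is the classical added factor that holds the cells undifferentiated, while FGF4 is a ligand the pluripotent cells make themselves. FGF13 is of another kind: it belongs to the intracellular FGF homologous factors, which are not secreted and bind voltage-gated sodium channels. The gene-level values do not separate splice forms, so the receptor forms that differ in ligand choice cannot be told apart. In bulk RNA, fewer cells expressing a gene and less RNA of it per cell cannot be told apart either.

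Of the 10 genes, 5 rose in AKIT (FGF4, FGF8, FGF17, FGF19 and FGFR4), 4 fell (FGFR1, FGFR2, FGFR3 and FGF13), and FGF2 did not pass the test. A gene is said to rise or fall where limma's moderated test on log2(RPKM + 1), adjusted over all 14776 genes tested, gave an adjusted p under 0.05. By this rule 20.0% of all tested genes were called, 8.22% higher and 11.7% lower. The 10 genes were chosen with earlier results of these data known, so these shares are no neutral standard for them. For FGF4, FGF8, FGF17 and FGFR3 the call came with a log2 difference of at least 1 in size, as for 3.86% of all tested genes, but FGF17 reached the test through AKIT alone and so had to differ. The AKIT libraries lay on 1 side of both E8 libraries for all 10 genes, which held for 54.4% of tested genes (25.8% with AKIT higher and 28.6% with AKIT lower). With either E8 library left out, 2 of the genes rose and 1 fell (FGF4 and FGF8, and FGFR3). Without AKIT replicate 2, 5 rose and 5 fell, FGF2 among the latter. The cells carried the markers of their labelled type: POU5F1 was at 296 to 400 RPKM in AKIT and 313 to 342 in E8, SOX2 at 220 to 305 and 419 to 450, and NANOG at 7.6 to 12.9 and 7.98 to 8.31. Of the 10 pluripotency markers examined, 0 rose and SOX2 fell, a call that ended without AKIT replicate 3 or either E8 library; without AKIT replicate 2, 1 rose and 2 fell.

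**Figure D1:**
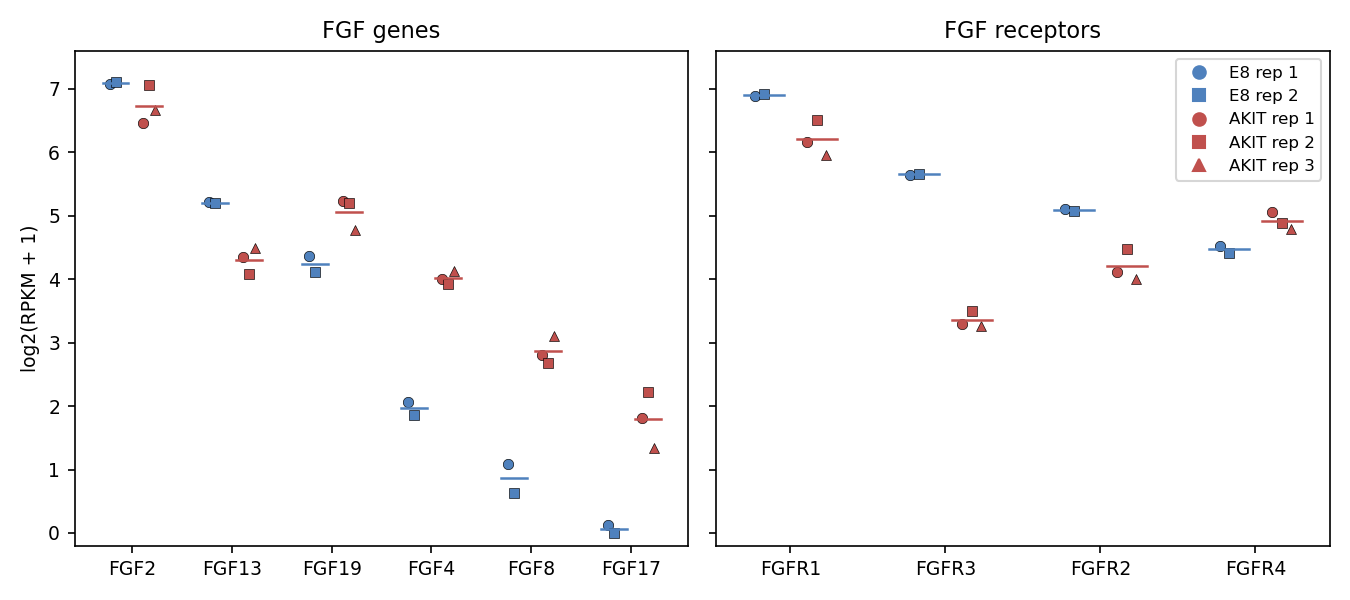
Level of each gene in every library as log2(RPKM + 1), with FGF genes on the left and receptors on the right; blue marks are E8 libraries, red marks are AKIT libraries, the mark's shape gives the replicate and the short line is the mean of the medium. FGFR3 lies near 49 RPKM in both E8 libraries and between 8.64 and 10.3 in AKIT, and FGF17 is at or near 0 in E8.

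Among the receptors the fall of FGFR3, a receptor best known for restraining cartilage growth, was the largest. FGFR3 was at 49.1 and 49.7 RPKM in E8 replicates 1 and 2 and at 8.83, 10.3 and 8.64 RPKM in AKIT replicates 1, 2 and 3. Every AKIT library thus held roughly the same low level, far from both E8 libraries. The mean level was 5.33-fold lower in AKIT (49.4 ± 0.417 against 9.27 ± 0.934 RPKM), a log2 difference of -2.30 ± 0.11 (SE; limma adjusted p = 0.000394). By size it had rank 21 among all tested genes that were lower in AKIT, called or not. The gene rested on 744 to 3850 reads per library, so counting error was small beside this difference.

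FGFR2, the receptor that serves epithelial and mesenchymal FGF signals through alternative splice forms, was at 33.6 and 32.8 RPKM in E8 and at 16.3, 21.3 and 15.1 RPKM in AKIT replicates 1 to 3. Its mean of 33.2 ± 0.572 RPKM dropped to 17.6 ± 3.3 (log2 difference -0.89 ± 0.15, limma adjusted p = 0.00953). FGFR1, the main receptor transcript of these cells, was at 117 and 120 RPKM in E8 and at 70.3, 90.5 and 61.4 RPKM in AKIT. Both genes were highest, among the AKIT libraries, in replicate 2, and so was FGFR3. The mean of FGFR1 was 119 ± 1.88 RPKM in E8 and 74.1 ± 14.9 in AKIT (log2 difference -0.69 ± 0.16, limma adjusted p = 0.0269). Leaving out AKIT replicate 1 or 3 ended this call (limma adjusted p = 0.0733 and 0.0591), as did leaving out either E8 library (0.167 and 0.183), while the full set of alternatives spanned 0.00183 to 0.183. For FGFR2 the call ended when either E8 library was dropped (limma adjusted p = 0.0951 and 0.0877; alternatives spanned 0.000651 to 0.0951).

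FGFR4, the receptor through which FGF19 acts in liver, went the other way. It was at 22.1 and 20.3 RPKM in E8 and at 32.3, 28.5 and 26.8 RPKM in AKIT, with no overlap between the media. Its mean rose 1.38-fold (21.2 ± 1.34 RPKM in E8, 29.2 ± 2.82 in AKIT; log2 difference 0.44 ± 0.11, limma adjusted p = 0.0355). This was the smallest called change of the 10 genes, and it was lost when AKIT replicate 1 was dropped (limma adjusted p = 0.0705) or either E8 library (0.172 and 0.278; alternatives spanned 0.012 to 0.278).

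The order of the receptors therefore differed between the media. In both E8 libraries the order of levels was FGFR1, FGFR3, FGFR2, FGFR4, and in all 3 AKIT libraries it was FGFR1, FGFR4, FGFR2, FGFR3. Within each medium the mean ± SD intervals of neighbouring receptors in that order did not overlap. FGFR3 made up 22.1% and 22.3% of the summed receptor RPKM in E8 and 6.91%, 6.86% and 7.72% in AKIT replicates 1 to 3. FGFR4 made up 9.96% and 9.09% in E8 and 25.3%, 18.9% and 23.9% in AKIT. The shares of FGFR1 (52.8% to 60.1%) and FGFR2 (12.8% to 15.1%) covered narrow ranges over the 5 libraries. The ratio of FGFR4 to FGFR3 was 0.451 and 0.407 in E8 and 3.66, 2.75 and 3.10 in AKIT. The summed level of the 4 receptors was 222 and 223 RPKM in E8 and 128, 151 and 112 RPKM in AKIT. These shares and sums describe the libraries and were not tested.

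**Figure D2:**
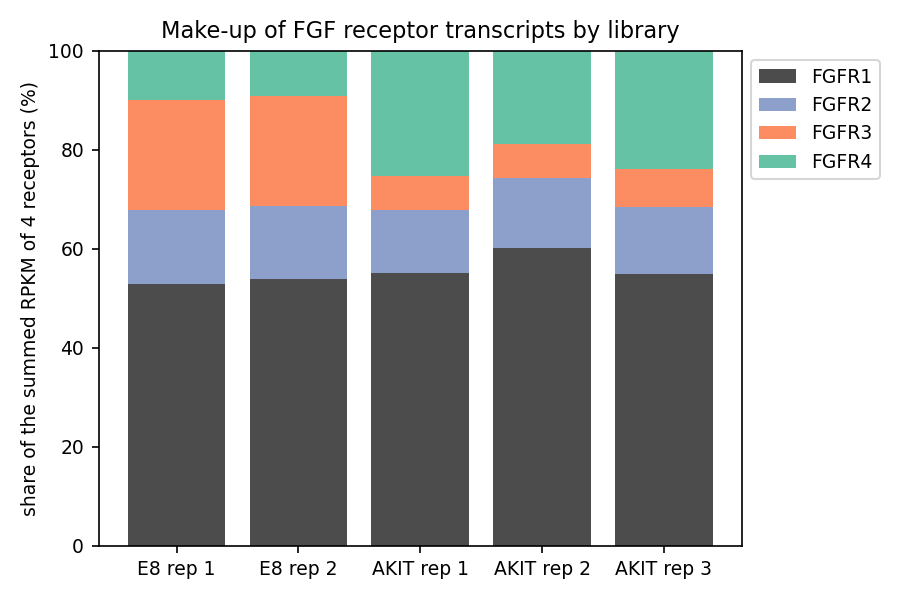
Share of each receptor gene in the summed RPKM of the 4 FGF receptors, in percent, with 1 stacked bar per library. FGFR3 (orange) takes about 22% in both E8 libraries and 6.86% to 7.72% in the AKIT libraries, and FGFR4 (green) takes 18.9% to 25.3% in AKIT.

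The start regions of the receptor that fell most, of another that fell and of the one that rose are shown so that the 3 can be compared. They come from RefSeq on build GRCh38.p14 (250 bases before to 50 after the gene's start), while the expression values rest on hg19, so only gene names link both sets. Capitals mark the GC box, the letters GGGCGG on either strand, the core site of SP and KLF factors; overlapping copies are marked together.
FGFR3 (chr4:1793043-1793342, plus strand): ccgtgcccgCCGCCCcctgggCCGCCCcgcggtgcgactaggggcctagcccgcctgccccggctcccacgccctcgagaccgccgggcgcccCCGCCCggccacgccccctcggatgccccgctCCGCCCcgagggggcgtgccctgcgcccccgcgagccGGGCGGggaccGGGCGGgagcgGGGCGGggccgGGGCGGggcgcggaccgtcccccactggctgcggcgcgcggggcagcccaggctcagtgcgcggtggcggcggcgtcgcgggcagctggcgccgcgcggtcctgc
FGFR2, the first of 5 listed starts (chr10:121598395-121598694, minus strand): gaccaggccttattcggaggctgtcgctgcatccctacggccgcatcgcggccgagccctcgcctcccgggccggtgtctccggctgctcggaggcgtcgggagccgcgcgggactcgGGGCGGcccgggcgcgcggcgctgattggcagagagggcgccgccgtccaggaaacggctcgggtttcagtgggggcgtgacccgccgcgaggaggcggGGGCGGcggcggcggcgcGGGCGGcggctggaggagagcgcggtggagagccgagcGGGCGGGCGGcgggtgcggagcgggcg
FGFR4, the first of 2 listed starts (chr5:177086665-177086964, plus strand): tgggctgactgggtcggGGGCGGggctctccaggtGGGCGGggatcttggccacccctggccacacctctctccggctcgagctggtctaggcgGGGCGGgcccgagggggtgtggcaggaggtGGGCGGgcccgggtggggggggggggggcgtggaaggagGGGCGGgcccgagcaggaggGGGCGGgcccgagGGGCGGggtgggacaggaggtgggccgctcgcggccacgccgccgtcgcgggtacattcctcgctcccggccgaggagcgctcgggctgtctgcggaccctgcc
The GC box occurred 8 times in the FGFR3 window, 5 times in that of FGFR2 and 7 times in that of FGFR4. Of 35116 windows of the same length, 45% held at least 1 copy and 5.14% held 5 or more. G and C made up 86.3%, 79.3% and 78.7% of these windows, against a median of 58.7% over all windows. The other listed starts had few copies: the remaining 4 windows of FGFR2 held 0, 0, 1 and 0, at 47.3% to 50.7% G and C, and the second window of FGFR4 held 0, at 57.3%. Which start these cells used was not measured. The 9-base site of EGR factors, GCGGGGGCG on either strand, occurred 2 times in the FGFR3 window, 1 time in that of FGFR2 and 0 times in that of FGFR4, and 5.07% of all windows held it; this site can share letters with a GC box. A match is only a run of letters, and no binding was measured. RefSeq windows were also found for FGF2 and FGF13, so that 5 of the 10 genes matched. The FGF2 window held 3 GC boxes and 0 EGR sites. Both windows of FGF13, which also fell, held 0 GC boxes and 0 EGR sites. The remaining windows of FGFR2 and FGFR4 held 0 EGR sites. TATA, CCAAT, CRE, octamer and TCF/LEF sites were also counted and are not described here. Whether any site goes with the direction of change was not tested.

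FGF4, a ligand expressed in the inner cell mass and known as a shared target of OCT4 and SOX2, had the largest rise of the 10 genes on the log2(RPKM + 1) scale. FGF4 was at 3.20 and 2.62 RPKM in E8 and at 15.1, 14.2 and 16.4 RPKM in AKIT replicates 1 to 3, with the AKIT libraries close to each other. The mean rose 5.23-fold (log2 difference 2.05 ± 0.12, limma adjusted p = 0.000436). Counting error was small, with 388 to 429 reads in each AKIT library and 69 and 52 in E8. Of the factors named with it, POU5F1 had a log2 difference of 0.08 ± 0.15 (limma adjusted p = 0.727), and SOX2 fell by 0.79 on the log2 scale (limma adjusted p = 0.0162). The closest relatives of FGF4 within its subfamily were nearly silent: FGF5 and FGF6 were at most 0.042 and 0.116 RPKM in any library.

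FGF8 and FGF17, close relatives of one subfamily that pattern the gastrulating embryo and the midbrain, also rose. FGF8 was at 1.12 and 0.555 RPKM in E8 and at 5.97, 5.42 and 7.57 RPKM in AKIT. The lowest AKIT library was several times the higher E8 library. The mean rose 7.54-fold (log2 difference 2.0 ± 0.19, limma adjusted p = 0.00171). FGF17 was at 0.0927 and 0 RPKM in E8 and at 2.53, 3.66 and 1.52 RPKM in AKIT, so that it was seen almost only in AKIT, where its libraries spread more than those of FGF4 or FGF8. It had 212 reads over the AKIT libraries and 2 over both E8 libraries, a ratio per sequenced read of 54.5 (95% exact interval 14.9 to 453, counting error only). The log2 difference of 1.73 ± 0.25 (limma adjusted p = 0.00605) understates this ratio because of the 1 RPKM added before taking logs, and was 4.18 with 0.1 RPKM added. FGF17 reached the minimum mean of 0.5 RPKM through the AKIT libraries alone, so a gene that passed in this way had to differ. Dropping either E8 library ended its call (limma adjusted p = 0.0551 and 0.0624; alternatives spanned 0.00089 to 0.0624). FGF18, the remaining ligand of this subfamily, was at 0.976, 0.716 and 0.884 RPKM in AKIT and 0.743 and 0.528 in E8, and did not pass the test (log2 difference 0.19 ± 0.14, limma adjusted p = 0.40).

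FGF8 and FGF17 are also genes of the primitive streak, and markers of other cell types were read beside them. T (brachyury) was at 1.11, 0.837 and 0.348 RPKM in AKIT replicates 1 to 3 and at 0.045 and 0.0489 in E8, and MIXL1 at 3.45, 2.03 and 1.62 against 1.22 and 0.617. T stayed below the minimum mean and was not tested, and MIXL1 did not pass the test (limma adjusted p = 0.0681). Within AKIT both markers were lowest in replicate 3, where FGF8 was highest and FGF17 lowest. Of 17 markers of other cell types, 8 reached the test. Among these 0 rose and 2 fell (COL1A1 and KRT7), against 8.22% and 11.7% of all tested genes. Without AKIT replicate 3, 4 of the markers rose and 1 fell, and with either E8 library left out 0 rose and 0 fell. Their summed level was 48.5 to 65.0 RPKM in AKIT and 64.9 to 68.0 in E8, with COL1A1 the largest part. LUM and COL3A1 reached the test through AKIT libraries alone. LUM was listed at 0 in both E8 libraries and at 5.81, 1.83 and 0.0244 RPKM in AKIT, and AKIT replicate 1 was also the highest for HAND1 and COL3A1 (6.31 and 5.63 RPKM). The part of such cells in the rises of FGF8 and FGF17 was not tested.

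FGF19, an endocrine ligand that needs a Klotho co-receptor to bind its receptors firmly, was at 19.7 and 16.3 RPKM in E8 and at 36.5, 35.6 and 26.4 RPKM in AKIT. AKIT replicate 3 lay nearest to E8 and still above it. Its mean rose 1.82-fold (18.0 ± 2.39 RPKM in E8, 32.8 ± 5.62 in AKIT; log2 difference 0.82 ± 0.16, limma adjusted p = 0.0165). It was not called when either E8 library was dropped (limma adjusted p = 0.0813 and 0.154; alternatives spanned 0.00583 to 0.154). The co-receptors were low in both media: KLB was at 0.191 to 0.283 RPKM in AKIT and 0.162 to 0.242 in E8, and KL was at most 0.0515. The other endocrine ligands FGF21 and FGF23 did not exceed 0.209 and 0.444 RPKM in any library.

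FGF4 and FGF19 are next to each other in the gene order of RefSeq (GRCh38.p14), within a cluster that also holds FGF3, ORAOV1 and the cyclin gene CCND1. None of the tested others in the cluster was called. FGF3 stayed at 0.0333 to 0.159 RPKM and was not tested. ORAOV1 had a log2 difference of -0.12 ± 0.10 (limma adjusted p = 0.442) and CCND1 one of 0.08 ± 0.13 (limma adjusted p = 0.701). Beyond this cluster, NPM3, a chaperone gene beside FGF8, rose by 0.79 on the log2 scale (limma adjusted p = 0.0461), and NSD1, a histone methyltransferase gene beside FGFR4, by 0.42 (limma adjusted p = 0.023). LETM1, a mitochondrial gene beside FGFR3, rose by 0.40 on the log2 scale (limma adjusted p = 0.0294) while FGFR3 fell. These 3 were the called genes of a list of 16 genes beside or antisense to the 10, of which 12 were tested and 0 fell, and none of the 3 was called without AKIT replicate 1, AKIT replicate 3 or either E8 library. Among 15 tested genes that directly flank one of the 10, 5 were called. Besides NPM3, NSD1 and LETM1 these were FBXW4 beside FGF8 and TACC1 beside FGFR1 (log2 differences of -0.48 and 0.47, named after their values were seen). Of all tested genes 20.0% were called, 8.22% higher and 11.7% lower, and the neighbours were not tested against these shares.

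FGF2, the ligand that E8 medium supplies as protein, was the most abundant FGF transcript in every library. It was at 134 and 137 RPKM in E8 and at 87.0, 132 and 101 RPKM in AKIT replicates 1 to 3. AKIT replicate 2 lay just under the E8 libraries and the other AKIT libraries well below. The log2 difference of -0.36 ± 0.17 did not pass the test (limma adjusted p = 0.176), with a 95% interval from -0.77 to 0.04. With AKIT replicate 2 left out the difference was -0.53, which passed the test (limma adjusted p = 0.0092; alternatives spanned 0.0092 to 0.483).

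The level of FGF2 cannot be separated fully from that of NUDT6, a gene on the opposite strand that overlaps its 3′ end, because the use of strand in counting is not given in the sources used here. In GENCODE release 29 (GRCh38) the genes share 637 exon bases, 44.9% of the NUDT6 exons and 9.4% of the FGF2 exons. NUDT6 was at 80.5 and 87.8 RPKM in E8 and at 51.3, 82.6 and 60.4 RPKM in AKIT, in the same order of AKIT libraries as FGF2. FGF2 had 8.21 and 7.73 reads for each NUDT6 read in E8 and 8.37, 7.91 and 8.25 in AKIT, nearly the same ratio in all libraries. The log2 difference of NUDT6 was -0.40 ± 0.19 (limma adjusted p = 0.18) and, without AKIT replicate 2, -0.59 (limma adjusted p = 0.009; alternatives spanned 0.009 to 0.526).

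**Figure D3:**
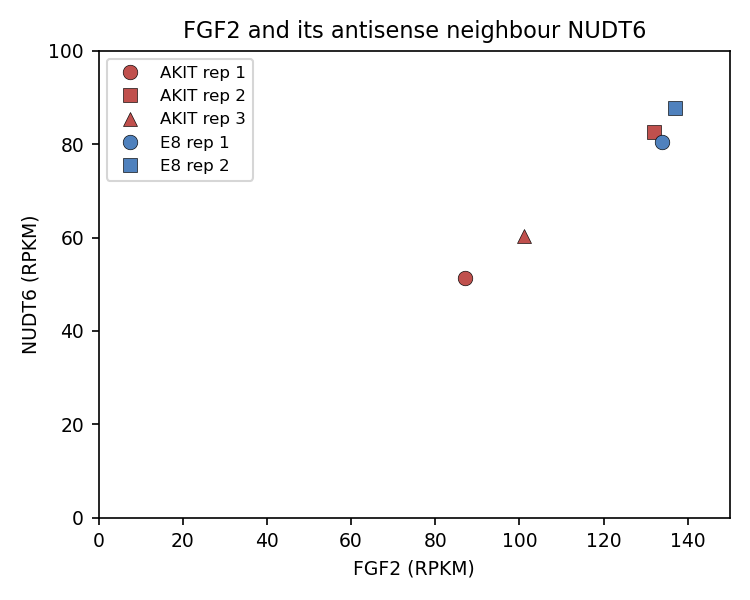
NUDT6 against FGF2, both in RPKM, with 1 mark per library (red AKIT, blue E8, shape by replicate). AKIT replicate 2 lies beside the E8 libraries for both genes, and AKIT replicate 1 is the lowest for both at 87.0 and 51.3 RPKM.

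The make-up of the secreted ligands in the AKIT libraries differed from that in the E8 libraries. Summed over the 18 secreted FGF genes, the level was 163 and 162 RPKM in E8 and 150, 195 and 157 RPKM in AKIT, with E8 inside the range of AKIT. Without FGF2 the sum was 28.5 and 24.9 RPKM in E8 and 63.1, 62.8 and 56.4 RPKM in AKIT, higher in every AKIT library. FGF2 took 82.4% and 84.7% of the secreted sum in E8 and 58.0%, 67.8% and 64.2% in AKIT. FGF19 took 12.1% and 10% in E8 and 24.3%, 18.2% and 16.8% in AKIT, and FGF4 took 1.97% and 1.62% against 10.1%, 7.26% and 10.4%. These sums include the genes chosen above and were not tested. The order of the 6 FGF genes was FGF2, FGF13, FGF19, FGF4, FGF8, FGF17 in both E8 libraries, and in all AKIT libraries FGF19 stood before FGF13. In AKIT the mean ± SD intervals of the neighbours FGF13 and FGF4 overlapped (18.9 ± 2.88 and 15.2 ± 1.12 RPKM), though FGF13 was the higher of the pair within every AKIT library.

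FGF13, the intracellular homologous factor, was at 36.1 and 35.7 RPKM in E8 and at 19.3, 15.9 and 21.6 RPKM in AKIT. All AKIT libraries lay well below both E8 libraries. Its mean was 1.9-fold lower in AKIT (35.9 ± 0.238 RPKM in E8, 18.9 ± 2.88 in AKIT; log2 difference -0.90 ± 0.14, limma adjusted p = 0.00664). Dropping either E8 library ended the call (limma adjusted p = 0.0795 and 0.0746; alternatives spanned 0.000906 to 0.0795). Its relative FGF12 also fell (2.68 ± 0.0818 RPKM in E8 and 1.02 ± 0.262 in AKIT; log2 difference -0.87 ± 0.15, limma adjusted p = 0.0108), FGF14 stayed at or below 0.0749 RPKM, and FGF11 spread over 21.8, 29.9 and 11 RPKM in AKIT around 23.1 and 27.2 in E8 (limma adjusted p = 0.509). Of 10 sodium channel genes, the partners of this class of factors, 5 reached the test, 0 rose and SCN9A fell (0.941 ± 0.0727 to 0.335 ± 0.0843 RPKM, limma adjusted p = 0.0361). Over all tested genes 8.22% rose and 11.7% fell. SCN9A reached the minimum mean through the E8 libraries alone, so it had to differ. It was called in none of the fits without AKIT replicate 1, AKIT replicate 3 or either E8 library, while leaving out AKIT replicate 2 gave 2 genes that fell.

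**Figure D4:**
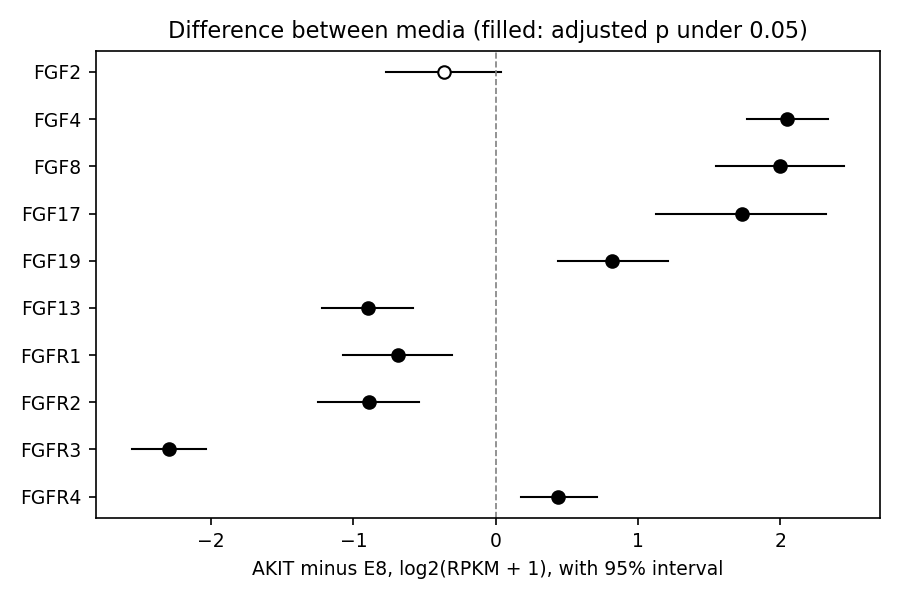
AKIT minus E8 for each of the 10 genes on the log2(RPKM + 1) scale, with the 95% interval of limma's moderated test; filled marks passed an adjusted p of 0.05. FGF4, FGF8 and FGF17 lie between 1.73 and 2.05 and FGFR3 at -2.30, while the interval of FGF2 reaches across 0.

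Of the remaining FGF genes, only FGF11 exceeded 2.74 RPKM in any library. Of 16 other FGF genes, 5 reached the minimum mean, with a median log2 difference of -0.36 against -0.01 over all genes tested. Among the 5, 0 rose and FGF12 fell, against 8.22% and 11.7% of all tested genes. With either E8 library left out FGF12 was not called. FGF16 and FGF22 were tested without a call (limma adjusted p = 0.565 and 0.257). FGF1, FGF3, FGF7, FGF9, FGF10 and FGF20 stayed below the minimum, the highest value among them being 0.892 RPKM of FGF10 in AKIT replicate 1.

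Among 12 co-receptors and binding partners of the pathway, 9 were tested, with a median log2 difference of 0.15. Of these 0 rose and 1 fell, against 8.22% and 11.7% of all tested genes. The gene that fell was CDH2, N-cadherin, which binds FGF receptors at the cell surface (15.9 ± 1.02 to 8.63 ± 1.84 RPKM, log2 difference -0.83 ± 0.17, limma adjusted p = 0.0199). FGFRL1, a receptor relative without a kinase domain, had a log2 difference of 0.03 ± 0.12 (limma adjusted p = 0.901). FLRT3, a membrane partner of FGF receptors, was at 2.32, 2.71 and 0.50 RPKM in AKIT and 0.267 and 0.275 in E8, and did not pass (limma adjusted p = 0.0885). It reached the minimum mean through the AKIT libraries alone, so its test was bound to lean toward a rise. FGFRL1 and FLRT3 were chosen after their values were seen. Without AKIT replicate 2 or 3, 1 gene of this group rose, and with either E8 library left out 0 rose and 0 fell.

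Heparan sulfate chains, which FGF ligands need to bind their receptors, are made and carried by the next group. Of 23 genes, 22 were tested, with a median log2 difference of -0.33. In this group 9 fell and 1 rose, against 11.7% and 8.22% of all tested genes. GPC6, a glypican that carries the chains, fell (8.62 ± 0.192 RPKM in E8 and 2.19 ± 0.333 in AKIT; log2 difference -1.60 ± 0.13, limma adjusted p = 0.00119). SULF1, a sulfatase that trims the chains and thereby weakens FGF signals, fell (4.30 ± 0.274 RPKM in E8 and 0.929 ± 0.357 in AKIT; log2 difference -1.47 ± 0.17, limma adjusted p = 0.00312). SDC2, a syndecan, fell (62.9 ± 7.35 RPKM in E8 and 26.1 ± 7.56 in AKIT; log2 difference -1.27 ± 0.24, limma adjusted p = 0.0137). The gene that rose, named after its value was seen, was NDST1, which starts sulfation of the chain (41.1 ± 0.146 to 54.6 ± 2.08 RPKM, limma adjusted p = 0.0229). The group's summed level was 922, 821 and 773 RPKM in AKIT replicates 1 to 3 and 920 and 889 in E8. Its largest part was the glypican GPC4, which was not called (log2 difference 0.16, limma adjusted p = 0.4, named after its values were seen). With either E8 library left out, 2 genes of this group fell and 0 rose, and 5 fell and 0 rose without AKIT replicate 1; without AKIT replicate 2, 2 rose and 11 fell.

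Below the receptors, 21 genes of adaptors and of the ERK cascade were all tested, and the median log2 difference was 0.08. Of these 2 rose and 2 fell, against 8.22% and 11.7% of all tested genes. SHC1, an adaptor, fell (102 ± 3.49 RPKM in E8 and 72.3 ± 1.07 in AKIT; log2 difference -0.49 ± 0.09, limma adjusted p = 0.0115). HRAS and ARAF, a RAS GTPase and a RAF kinase, rose by 0.47 ± 0.10 and 0.46 ± 0.10 on the log2 scale (limma adjusted p = 0.0232 and 0.0207). MAP2K1, a kinase that activates ERK, was the other gene that fell (-0.42 ± 0.09, limma adjusted p = 0.0249; named after its value was seen). The changes in this group were small beside those of FGFR3 and FGF4. Without AKIT replicate 2, 5 of these genes rose, and with either E8 library left out 0 rose and 0 fell. Without AKIT replicate 3, 0 rose and 1 fell.

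Of 20 feedback inhibitors and targets, 19 were tested, with a median log2 difference of -0.26. Among them 6 fell and 2 rose, against 11.7% and 8.22% of all tested genes. The largest falls were those of EGR1 (log2 difference -4.27 ± 0.45), of the ERK phosphatase gene DUSP6 (-3.58 ± 0.26) and of FOS (-1.15 ± 0.32; limma adjusted p = 0.00221, 0.000813 and 0.0473). The Sprouty genes SPRY1, SPRY2 and SPRY4, feedback inhibitors of the receptors, were not called (named after their values were seen), with log2 differences of -0.24, -0.37 and -0.19 (limma adjusted p = 0.236, 0.0689 and 0.549). Higher in AKIT were IL17RD, a membrane inhibitor of the pathway, and the ETS factor ETV4 (0.51 and 0.48 on the log2 scale; chosen for naming once their values were known), whereas the related ETV5 fell by 1.03. With either E8 library left out, 3 genes of the group fell and 0 rose; without AKIT replicate 2, 9 fell, and without AKIT replicate 3, 4 fell.

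**Figure D5:**
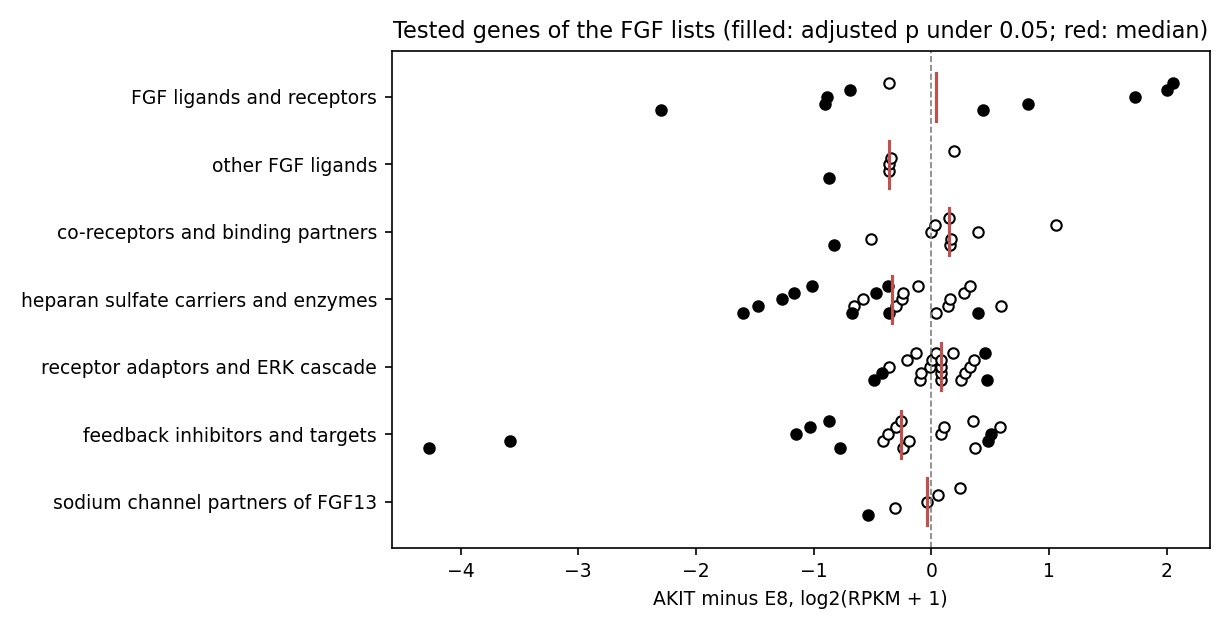
AKIT minus E8 of each tested gene on the log2(RPKM + 1) scale, by group; filled marks passed an adjusted p of 0.05 and the red line is the group's median. The FGF ligands and receptors spread from -2.30 to 2.05 around a median of 0.04, and most adaptors and ERK cascade genes lie near 0.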

How the data were processed

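Total RNA of KhES-1 cells was sequenced on Illumina libraries, per the labels' protocols. The table used here holds RPKM values deposited by the authors for 23346 gene rows, with 1 column for each of 5 libraries: the 3 of AKIT and replicates 1 and 2 of E8. E8 replicate 3 was not analysed here. The builds hg19 and GRCh37 come from the submitters' processing notes, while aligner, counting tool, annotation and strand setting are not given in these sources. Columns were matched to samples by title.

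Low RPKM values step by whole reads, which gave back the reads behind each value: all values of 19892 genes (100%) came out whole, to within 0.02 reads. The smallest fitting gene length was taken. For genes seen in few libraries some length fits in any case, so the 100% is no check of those genes. Library totals were 16242864 to 23263095 reads. For FGF17 the smallest fitting gene length was below its coding length in GENCODE release 29, so its next multiple (1222 bases) was taken. The fit by voom kept the reads of the smallest fitting length for every gene, FGF17 included.

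Tests used limma 3.58.1 in R 4.3.3 on log2(RPKM + 1), moderated along the mean level, two-sided and without covariates. Genes needed 0.5 RPKM on average over the 5 libraries (14776 genes), and p-values were adjusted by Benjamini-Hochberg, called under 0.05. The procedure was tested on simulated data. Standard errors and 95% intervals are those of the moderated test. Alternatives were added constants of 0.1 and 0.5 RPKM, all genes, genes averaging 2 RPKM or more, scaling by median ratios, quantile normalization, a fit without the trend, array weights, voom on the recovered reads, a replicate block, and leaving out each library. The 10 genes and the gene groups were chosen with earlier results of these data known. The 10 genes, POU5F1, SOX2, NANOG, any other FGF ligand above 0, and genes that overlap one of the 10 or share its cluster were always open to naming. Of each group up to 3 called genes with the largest log2 difference were named, or, where none was called, the 2 with the smallest p. Intervals from reads cover counting error only.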

Additional observations from a re-analysis of the deposited data

How the results depend on the processing

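None of the 10 genes changed direction under any of the 15 alternatives (14 for FGF17), and FGF4, FGF8 and FGFR3 were called under all of them. Since the AKIT libraries lay on 1 side of both E8 libraries for all 10 genes, most alternatives could not reverse a direction. Only scaling by median ratios, quantile normalization and voom could have done so. The other calls depended on the setting, and the cause was not tested. Without E8 replicate 1 or 2, 2 of the 10 genes rose and 1 fell, and over all libraries left out in turn 2 to 5 rose and 1 to 5 fell. In those fits a lone E8 library is assumed to vary like the AKIT libraries. Over all genes, leaving out 1 library gave 142 to 2132 higher and 250 to 2619 lower genes against 1214 and 1736, fewest without E8 replicate 2 and most without AKIT replicate 2. Array weights gave 2269 higher and 2740 lower genes and called FGF2 (log2 difference -0.44, limma adjusted p = 0.0224). Without a filter on low values, FGFR1 was not called (limma adjusted p = 0.0506). With a minimum mean of 2 RPKM, FGF17 was not tested and 4 of the genes rose.

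The labels give replicate numbers, but do not say that a number marks a shared day. For want of such a label the numbers were not taken to pair the samples. Deviations of the same-numbered libraries were uncorrelated (r = -0.00128 for replicate 1 and 0.0254 for replicate 2 across genes), but this cannot decide the question. With 2 E8 libraries the deviations from their mean are exact opposites, so both values rest on 1 difference between E8 libraries. With the replicate block, in which AKIT replicate 3 adds nothing to the difference between media, 492 genes were higher and 824 lower. Of the 10 genes, 4 rose and 3 fell with the replicate block, and FGFR1 (limma adjusted p = 0.0671) and FGFR4 (0.0606) were not called. Counts of the pathway groups ranged, over the 15 alternatives, from 2 to 12 lower for heparan sulfate genes, 3 to 9 lower for feedback genes and 0 to 6 higher for the ERK cascade. Depth limited FGF17 in E8, with 2 reads in all.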
